A study of Mus musculus with 8 samples.

Results

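The 9 genes described here are B2m, H2-K1, H2-D1, Tap1, Psmb8, Psmb9, Irf9, Ifi27 and Bst2, which serve antigen presentation by major histocompatibility complex (MHC) class I and the interferon response. They were chosen by name, with earlier results of these data known. They were measured by every probe that the annotation of the MouseRef-8 V2 bead array gives one of these symbols. This came to 14 of 25662 probes and 9 of 16562 annotated genes. Total RNA was taken from neural stem and progenitor cells of E14.5 mouse embryos of mixed C57BL/6 X 129S1/SvlmJ background. The Prmt5-depleted cells were Prmt5F/FNes, which carry floxed Prmt5 alleles and Nestin-Cre, a Cre recombinase whose promoter is active in the neural progenitors of the embryo. The control cells were Prmt5F/F, with the floxed alleles and no Cre, so an effect of Cre and an effect of losing Prmt5, an arginine methyltransferase, cannot be told apart. Each genotype had 4 arrays, numbered 1 to 4. The labels do not say whether these are separate embryos or cultures, so the p-values measure the spread among these samples, which may be technical.

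MHC class I molecules carry short peptides from inside the cell to its surface, where CD8 T cells read them. Each is a heavy chain, such as the products of H2-K1 and H2-D1, bound to the light chain B2m, with a peptide cut by the proteasome and carried into the endoplasmic reticulum by the transporter of Tap1 and Tap2. Interferons raise this pathway: type I interferon acts through a complex that includes the DNA-binding protein IRF9 at interferon-stimulated response elements (ISRE), and interferon gamma acts at GAS elements. Neural cells are known for low surface class I unless they meet interferon.

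Levels are log2 signals after background correction with an offset of 16 and quantile normalization, and a log2 difference is Prmt5-depleted minus control. A probe was detected on an array when the deposited detection p-value was under 0.05. A gene can be expressed and still have an undetected probe, as for B2m below, so a lack of detection is not read as absence. Of the 25662 probes, 13196 were detected on at least 4 of the 8 arrays and were tested with limma, with Benjamini-Hochberg adjustment over all of them, and a probe was called at an adjusted p under 0.05. Mean array signals before normalization were 472 to 573 in Prmt5-depleted and 449 to 598 in control arrays, and detected probes numbered 12925 to 13602 in Prmt5-depleted and 12518 to 12922 in control arrays. The arrays separated by genotype on the first principal component (74.1% of the variance), and control 4 with Prmt5-depleted 1 and 3 stood apart from the other arrays on the second (10.5%). All 3 Prmt5 probes were lower in Prmt5-depleted arrays, with log2 differences of -3.08, -2.60 and -2.70, the direction the labels give, and whether they lie in the deleted exons was not determined here. Neural stem cell and radial glia markers were detected for 11 of 15 genes in each Prmt5-depleted array and for 11 to 12 in each control array, while Pax6, Msi1 and Emx2 were detected on none. Of the 11 of them tested, 3 were higher, 6 lower and 2 not called, with a median log2 difference of -0.95. Among the lower, Sox2 was 2.32-fold lower (limma adjusted p = 2.25e-05). The 3 higher were Nes, Vim and Lhx2, by 1.32-fold, 1.46-fold and 1.72-fold (limma adjusted p = 0.0379, 0.00164 and 7.2e-05). All of these were named after their values were seen.

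Promoter letters are shown for the members whose probes bear on a shared element or a shared start region: B2m and Bst2, whose windows hold the ISRE core, and Tap1 and Psmb9, which start next to each other on opposite strands. The sequences are RefSeq windows of GRCm38.p6, from 250 bases before to 50 after a start, and 8 of the 9 genes had 1 or more of them, 10 windows in all. The B2m stretch is chr2:122147527-122147586 on the plus strand, the Bst2 stretch is chr8:71537573-71537632 on the minus strand, and the stretch between the Tap1 and Psmb9 starts is chr17:34187331-34187555 on the plus strand, the sense strand of Tap1. Capitals mark the ISRE core in B2m and Bst2, where a pair of overlapping matches forms the run, and the CCAAT box and GC box between Tap1 and Psmb9.
B2m: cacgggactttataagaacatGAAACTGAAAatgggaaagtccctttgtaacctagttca
Bst2: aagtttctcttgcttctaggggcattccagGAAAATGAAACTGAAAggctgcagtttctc
Tap1 and Psmb9: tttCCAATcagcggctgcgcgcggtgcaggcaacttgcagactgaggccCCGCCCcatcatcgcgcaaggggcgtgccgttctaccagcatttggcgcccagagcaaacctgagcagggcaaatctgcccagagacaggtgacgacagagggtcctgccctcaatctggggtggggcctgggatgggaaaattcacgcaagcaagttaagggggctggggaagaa

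The ISRE core was searched as GAAA, any 2 bases and GAAA again, on both strands like all motifs here, and 3.44% of the 32851 RefSeq windows hold it. It lay in the B2m window at -139 to -130 and in the Bst2 window at -130 to -121 and -124 to -115, counted from the start. The GAS element, searched as TTCNNNGAA and held by 8.3% of windows, lay in the Psmb8 window at -97 to -89 and in the Bst2 window at -136 to -128, where it overlaps the ISRE core. Irf9 had 2 windows, of which 1 held a GC box (GGGCGG, in 35.7% of windows) at -90 to -85 and neither held the ISRE core or GAS letters. The CCAAT box, in 37.4% of windows, lay in the windows of B2m, H2-K1, H2-D1, Tap1 and Psmb9. The p53 half-site, held by 8.36% of windows, had 0 matches among the member windows. These are letter matches and not measured binding.

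Of the 9 member probes tested, 5 were higher in Prmt5-depleted cells, 0 were lower and 4 were not called. Over all 13196 probes tested, 22.1% were called higher and 24.7% lower, so calls were frequent on these arrays. The 5 higher probes belong to Ifi27, Irf9 and Tap1. The other 5 member probes, including all those of H2-K1, H2-D1 and Psmb8, were detected on fewer than 4 arrays and were not tested. Per gene, taking the brightest tested probe, 3 of 6 members were called, all higher, and 48.6% of the 9001 genes tested were called in either direction (2164 higher and 2207 lower). The Tap1 probe passed the detection filter through the Prmt5-depleted arrays alone, which favours a higher level there. In addition, 1 probe each of Ifi27 and Irf9 was detected on 1 control array only. The counts over tested members are therefore a description.

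**Figure D1:**
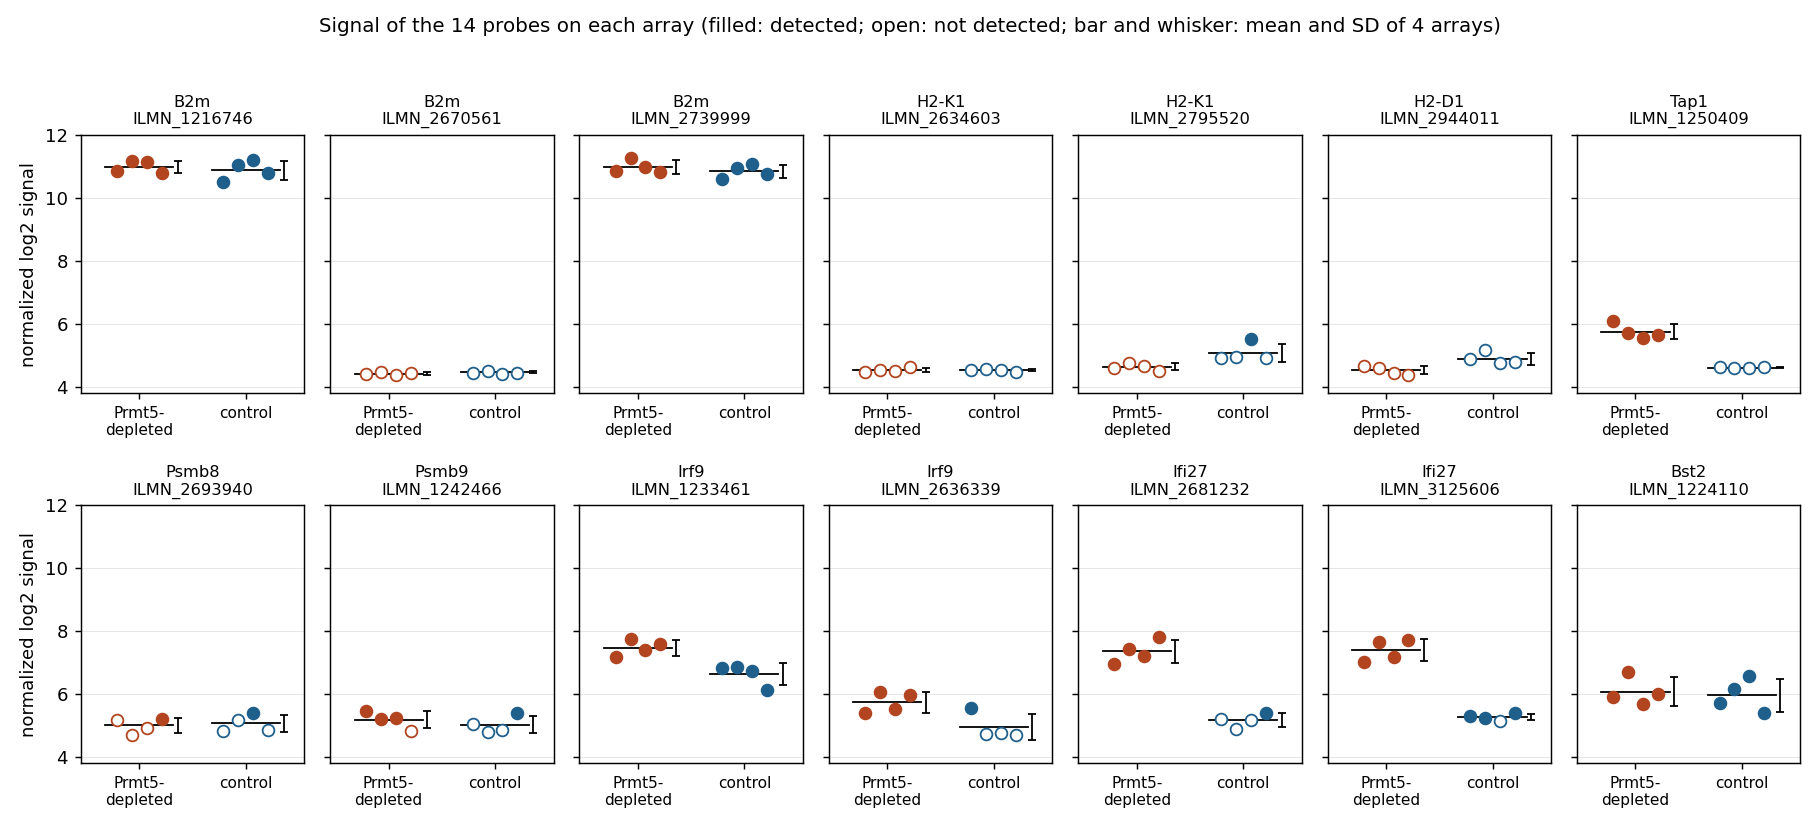
Normalized log2 signal of each of the 14 member probes, 1 panel per probe, with Prmt5-depleted arrays left of control arrays. Points are single arrays, filled where the probe was detected, and bars give the mean and SD of 4 arrays. The Ifi27 probes lie between 6.96 and 7.83 in Prmt5-depleted arrays, above every control array, while the B2m and Bst2 probes overlap between genotypes.

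B2m, the invariant light chain shared by all classical class I molecules, was measured by 3 probes. ILMN_1216746 read 10.87, 11.17, 11.14 and 10.79 in Prmt5-depleted 1 to 4, against 10.52, 11.04, 11.20 and 10.81 in control 1 to 4. ILMN_2739999 read 10.85, 11.28, 10.99 and 10.83 in Prmt5-depleted arrays, against 10.61, 10.96, 11.08 and 10.75 in control arrays. The genotypes overlap at both probes, and the lowest array at each is control 1. The log2 difference was 0.10 ± 0.16 (SE, limma adjusted p = 0.628) at the first probe and 0.14 ± 0.15 (SE, limma adjusted p = 0.461) at the second. The third probe, ILMN_2670561, was detected on no array, with detection p-values of 0.649 to 0.976, and its levels of 4.37 to 4.47 in Prmt5-depleted and 4.43 to 4.51 in control arrays have no order.

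Both detected B2m probes moved together from array to array within a genotype: control 1 lay 0.38 and 0.24 below its genotype mean at the first and second probe. The genes outside the lists whose levels were most like those of the brightest B2m probe over the 8 arrays were Zfp583 (Pearson r = 0.932), Tfcp2 (r = 0.93) and Map10 (r = 0.902), among 8889 genes compared. These correlations describe 8 arrays that share normalization, and none of the 3 genes was called between genotypes, with log2 differences of 0.07, 0.14 and -0.04.

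H2-K1 and H2-D1 encode the classical class I heavy chains K and D, which hold the peptide. H2-K1 probe ILMN_2634603 was detected on no array, with levels of 4.47 to 4.64 in Prmt5-depleted and 4.49 to 4.57 in control arrays. H2-K1 probe ILMN_2795520 read 4.61, 4.77, 4.68 and 4.50 in Prmt5-depleted arrays, none detected, against 4.92, 4.95, 5.52 and 4.91 in control arrays, where control 3 alone was detected. H2-D1 probe ILMN_2944011 read 4.66, 4.60, 4.46 and 4.38 in Prmt5-depleted arrays, against 4.89, 5.17, 4.75 and 4.80 in control arrays, and was detected on none of the 8. At ILMN_2795520 and at the H2-D1 probe the Prmt5-depleted values are below the control values, but 7 of the 8 arrays at the first probe and all 8 at the second did not detect it, so neither an order nor a fold is read from them. Class I heavy chains are close paralogs, and which of them a probe can bind was not determined here.

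Tap1, a subunit of the peptide transporter, is in human cells also described as a target of p53. Its probe ILMN_1250409 read 6.10, 5.73, 5.57 and 5.65 in Prmt5-depleted arrays, all detected, against 4.63, 4.61, 4.61 and 4.65 in control arrays, none detected. Every Prmt5-depleted array lay above every control array, and Prmt5-depleted 1 was highest. Before normalization the signals were 132.8, 121.4, 102.2 and 108.3 intensity units in Prmt5-depleted arrays, against 70.9, 75.2, 78.0 and 78.2 in control arrays. Tap1 was at least 1.41-fold higher in Prmt5-depleted cells, set against the lowest level of a detected probe on each control array. The fitted log2 difference was 1.14 ± 0.13 (SE, limma adjusted p = 2.84e-05), and it was 0.58 on the authors' quantile-normalized values, which keep the background.

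Psmb8 and Psmb9 encode catalytic subunits of the immunoproteasome, the interferon-inducible form that cuts peptides suited to class I. Psmb8 probe ILMN_2693940 read 5.19, 4.71, 4.92 and 5.21 in Prmt5-depleted arrays, against 4.83, 5.18, 5.39 and 4.86 in control arrays, and was detected on 1 array of each genotype, so it was not tested with the others. Psmb9 probe ILMN_1242466 read 5.48, 5.21, 5.24 and 4.83 in Prmt5-depleted arrays, 3 of them detected, against 5.04, 4.81, 4.85 and 5.40 in control arrays, 1 of them detected. The genotypes overlap at both genes. The log2 difference of Psmb9 was 0.16 ± 0.17 (SE, limma adjusted p = 0.463). Tap1 and Psmb9, whose starts lie 225 bases apart on opposite strands in the stretch printed above, thus had different calls, although the difference between their differences was not tested. The Tap1 probe passed the detection filter through the Prmt5-depleted arrays alone, and Psmb9 lay near background. No conclusion about their shared start region is therefore drawn from the calls of Tap1 and Psmb9. Within the Prmt5-depleted arrays both genes were highest in array 1.

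Irf9, the DNA-binding subunit of the type I interferon complex and in human cells also described as a target of p53, had 2 probes. ILMN_1233461 read 7.17, 7.74, 7.39 and 7.60 in Prmt5-depleted arrays, against 6.82, 6.86, 6.75 and 6.12 in control arrays, all detected. ILMN_2636339 read 5.39, 6.08, 5.54 and 5.96 in Prmt5-depleted arrays, all detected, against 5.55, 4.75, 4.78 and 4.70 in control arrays, where control 1 alone was detected. The genotypes are separate at the first probe and overlap at the second through control 1. Irf9 was 1.79-fold higher in Prmt5-depleted cells at the first probe, a log2 difference of 0.84 ± 0.18 (SE, limma adjusted p = 0.00292). At the second probe it was 1.73-fold higher as estimated and 1.32-fold with values below the floor raised to it, a log2 difference of 0.79 ± 0.21 (SE, limma adjusted p = 0.00936). That floor is the lowest level of a detected probe on an array, 5.08 to 5.21 in Prmt5-depleted and 5.21 to 5.30 in control arrays.

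Ifi27 encodes a small hydrophobic interferon-inducible protein of the ISG12 family, and its 2 probes had the largest log2 differences among the members tested. ILMN_2681232 read 6.96, 7.43, 7.21 and 7.83 in Prmt5-depleted arrays, all detected, against 5.22, 4.88, 5.18 and 5.40 in control arrays, 1 of them detected. ILMN_3125606 read 7.03, 7.67, 7.19 and 7.71 in Prmt5-depleted arrays, all detected, against 5.31, 5.23, 5.15 and 5.39 in control arrays, 3 of them detected. Every Prmt5-depleted array lay more than 1 log2 unit above every control array at both probes. Ifi27 was 4.56-fold higher in Prmt5-depleted cells at the first probe (4.19-fold with values below the floor raised to it), a log2 difference of 2.19 ± 0.18 (SE, limma adjusted p = 2.51e-06). It was 4.38-fold higher at the second (4.27-fold with values raised), a log2 difference of 2.13 ± 0.16 (SE, limma adjusted p = 1.28e-06). The size depends on background correction: on the authors' quantile-normalized values the log2 differences were 1.26 and 1.24.

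Bst2 encodes tetherin, a membrane protein that holds enveloped viruses at the cell surface, and its gene is induced by interferon. Its probe ILMN_1224110 read 5.90, 6.72, 5.69 and 6.01 in Prmt5-depleted arrays, against 5.72, 6.16, 6.58 and 5.40 in control arrays, and was detected on all 8. The genotypes overlap, with Prmt5-depleted 2 and control 3 high and control 4 low. The log2 difference was 0.12 ± 0.27 (SE, limma adjusted p = 0.737). Bst2 and B2m, whose windows hold the ISRE core printed above, were thus both not called.

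Among the 9 member probes tested, 4 had every Prmt5-depleted array above every control array, namely those of Tap1 and Ifi27 and the first of Irf9; over all probes tested 20.9% did. Within Prmt5-depleted cells, arrays 2 and 4 lay above arrays 1 and 3 at all 4 probes of Irf9 and Ifi27, the same split as on the second principal component, whereas Tap1 was highest in array 1. The calls were therefore refitted within each side of that split. With control 1 to 3 and Prmt5-depleted 2 and 4, the log2 differences were 1.07 for Tap1, 0.85 and 0.99 for Irf9 and 2.52 and 2.44 for Ifi27. With control 4 and Prmt5-depleted 1 and 3, they were 1.19 for Tap1, 1.19 and 0.76 for Irf9 and 1.72 and 1.76 for Ifi27. In the first set the Irf9 and Ifi27 probes were called, and so was Tap1, which had to differ by the filter (limma adjusted p from 1.02e-05 to 0.00954). Calls were frequent in that set, with 4039 of 9001 genes called. In the second set control 4 is a lone control array whose spread is taken from the Prmt5-depleted pair. Only the log2 differences of these probes are therefore read there. Both sets are parts of the same arrays, split on a component computed from them, and the tested probes were chosen on all arrays. The same direction in both sets is therefore not independent support.

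**Figure D2:**
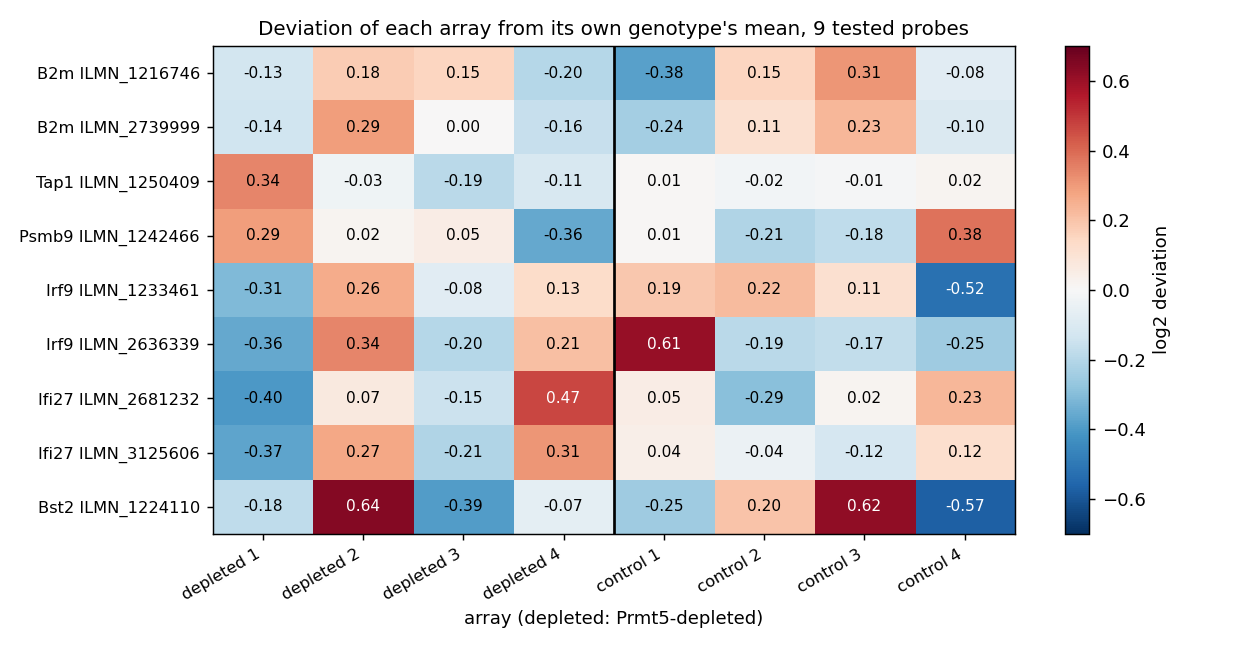
Deviation of each array from the mean of its own genotype (log2) for the 9 member probes tested, with Prmt5-depleted arrays left of control arrays. Irf9 and Ifi27 are above the mean in Prmt5-depleted 2 and 4 and below it in Prmt5-depleted 1 and 3, and Bst2 ranges from -0.57 in control 4 to 0.64 in Prmt5-depleted 2.

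In bulk RNA, fewer cells of a type and less RNA per cell cannot be told apart, and markers of other cell types moved with the genotype beside Tap1, Irf9 and Ifi27. Of 18 microglia and macrophage markers, 3 to 8 were detected per Prmt5-depleted array and 1 to 2 per control array, with summed signals of 567 to 929 in Prmt5-depleted and 486 to 522 in control arrays. These sums, like those below, include undetected markers at their background levels. Where few markers were detected, as for lymphocytes, they are mostly background. Laptm5, a lysosomal protein of blood cells, was 3.01-fold higher (limma adjusted p = 0.00236), while 10 of the 18, among them Ptprc, Itgam, C1qa and Tmem119, were detected on no array. Laptm5 read 6.36, 6.95, 6.89 and 8.22 in Prmt5-depleted arrays, against 6.16, 5.28, 5.25 and 5.37 in control arrays. Prmt5-depleted 4 thus stood highest, and Cx3cr1, C1qb and Lyz2 were detected on that array alone. Of 16 mesenchymal, pericyte and meningeal markers, 7 to 10 were detected per Prmt5-depleted array and 3 to 4 per control array, with summed signals of 1463 to 1670 in Prmt5-depleted and 767 to 946 in control arrays. Of the 6 tested, 5 were higher and 1 was lower: the proteoglycan gene Dcn was 6.09-fold higher (limma adjusted p = 3.38e-07), Cspg4, a proteoglycan gene of pericytes and glial precursors, was 2.40-fold lower (limma adjusted p = 8.06e-05), and Col1a1, Pdgfrb, Anpep and Tagln were detected on no array.

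Summed signals of 6 erythroid markers were 359 to 473 in Prmt5-depleted and 160 to 173 in control arrays, with 2 to 3 and 0 to 1 detected, and 3 were detected on no array. For 10 lymphocyte markers they were 264 to 297 in Prmt5-depleted and 254 to 272 in control arrays, with 2 to 3 and 0 to 1 detected. For 13 endothelial markers they were 542 to 666 in Prmt5-depleted and 601 to 692 in control arrays, with 3 to 5 and 1 to 3 detected, and Pecam1 and Cdh5 were detected on none. Of the 2 endothelial markers tested, Egfl7, the brightest of the 13 on every array, was 1.75-fold lower (limma adjusted p = 0.000127). The other, Esam, was 2.12-fold higher with overlapping genotypes (limma adjusted p = 0.00578), so the sums lean on Egfl7. For 14 neuron markers the summed signals were 23383 to 25920 in Prmt5-depleted and 7912 to 8782 in control arrays. Of the 11 neuron markers tested, 10 were higher, 0 lower and 1 not called, with a median log2 difference of 1.99. The marker genes named here were chosen after their values were seen, and the part of these cell types in the member differences was not tested.

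The other genes of class I presentation were read from lists. Of 24 other class I heavy chain genes on the array, 10 were tested: 1 was higher, 4 were lower and 5 were not called, with a median log2 difference of -0.44 against -0.04 over all genes. Without the detection filter, the median over all 24 was -0.10, against -0.02 over all genes, with undetected probes at background levels. Without control 2, 8 of the 10 tested were called. Cd1d1, which presents lipids to NKT cells, had levels of 6.92, 7.47, 7.07 and 7.39 in Prmt5-depleted arrays, against 8.81, 9.17, 9.16 and 8.61 in control arrays, and was 3.31-fold lower (limma adjusted p = 8.13e-06). The Qa-2 heavy chain genes H2-Q7 and H2-Q8 were lower, H2-Q7 by 2.64-fold as estimated and 2.33-fold with values below the floor raised to it, with 1 of 4 Prmt5-depleted arrays detected (limma adjusted p = 5.84e-05). H2-Q8 was at least 1.72-fold lower, with 0 of 4 Prmt5-depleted arrays detected (limma adjusted p = 0.000102). H2-T23, the Qa-1 heavy chain read by natural killer cells and named after its values were seen, was 2.60-fold lower (limma adjusted p = 0.000311). Fcgrt, the neonatal Fc receptor, which also binds B2m, was at least 1.30-fold higher, with 0 of 4 control arrays detected (limma adjusted p = 0.000226). H2-Q8 and Fcgrt each passed the detection filter through 1 genotype alone, which favours a higher level in that genotype. Their calls therefore carry no weight in the counts of the list.

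Of 15 genes of class I loading and regulation, 9 were tested, 3 were higher, 0 lower and 6 not called, with a median log2 difference of 0.03. Psme1 and Psme2, the subunits of the PA28 cap that opens the proteasome, were higher by log2 differences of 0.89 ± 0.12 and 0.87 ± 0.16 (SE, limma adjusted p = 0.000124 and 0.000727). Psmb10, the third catalytic subunit of the immunoproteasome beside Psmb8 and Psmb9, was 1.31-fold higher (limma adjusted p = 0.0112). Tap2, the partner of Tap1 in the transporter, averaged 6.75 ± 0.15 in Prmt5-depleted and 6.77 ± 0.24 in control arrays (SD, n = 4 each), a log2 difference of -0.02 ± 0.14 (SE, limma adjusted p = 0.912). Tapbp, which holds the heavy chain at the transporter, had a log2 difference of 0.08 ± 0.14 (SE, limma adjusted p = 0.664), and Nlrc5, the class I transactivator, was detected on no array; these 3 genes were named after their values were seen. The constitutive proteasome counterparts of the immunoproteasome subunits had 3 of 3 genes tested and none called, with log2 differences of -0.18 for Psmb5 and 0.08 for Psmb7 (limma adjusted p = 0.427 and 0.556).

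Upstream of the members, 15 of 19 interferon ligand genes, among them Ifnb1 and Ifng, were detected on no array, and the 2 tested, Ifna6 and Ifnz, were not called (log2 differences of -0.11 and -0.09, limma adjusted p = 0.503 and 0.686). The tested Ifna6 probe was detected on all 8 arrays, but another Ifna6 probe on none. Another Ifnz probe, detected on 2 Prmt5-depleted arrays, was not tested. Of 16 interferon receptor and JAK-STAT genes, 10 were tested: 1 was higher, 4 were lower and 5 were not called, with a median log2 difference of -0.20. Without Prmt5-depleted 3, 3 of them were called. Ifngr1, the ligand-binding chain of the interferon gamma receptor, read 6.96, 6.85, 6.92 and 6.86 in Prmt5-depleted arrays, against 7.86, 8.24, 8.05 and 7.78 in control arrays, and was 2.12-fold lower (limma adjusted p = 2.76e-05). The kinase gene Jak2 was lower by a log2 difference of -0.63 and Jak1 higher by 0.85 (limma adjusted p = 0.0013 and 0.00199). Ifnar2, a chain of the type I interferon receptor, was 1.62-fold lower with overlapping genotypes (limma adjusted p = 0.0181), and leaving out Prmt5-depleted 3 took its adjusted p to 0.0538, above the threshold. Pias1, a SUMO ligase gene named after its values were seen, had a log2 difference of -0.34 (limma adjusted p = 0.0382). Stat2, the partner of Irf9 in the type I complex and also named afterwards, averaged 5.65 ± 0.36 in Prmt5-depleted and 5.68 ± 0.22 in control arrays (SD, n = 4 each, limma adjusted p = 0.91).

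Of 8 other interferon regulatory factor genes, 4 were tested, 0 were higher, 1 was lower and 3 were not called, with a median log2 difference of -0.11. Irf3, which turns on interferon genes after TBK1 phosphorylates it, read 10.37, 10.44, 10.14 and 10.48 in Prmt5-depleted arrays, against 11.53, 11.40, 11.52 and 11.41 in control arrays. It was 2.15-fold lower (limma adjusted p = 1.23e-05), and its other 2 probes were lower by log2 differences of -1.26 and -1.18. Irf9 and Irf3 were thus called in opposite directions. Irf7 was detected on no array.

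Of 19 genes of nucleic acid sensing, 9 were tested: 4 were higher, 1 was lower and 4 were not called, with a median log2 difference of 0.35. Without the detection filter, the median over all 19 was 0.03, with undetected probes at background levels. The DNA exonuclease gene Trex1, the kinase gene Tbk1 and the RNA-activated kinase gene Eif2ak2 were higher by log2 differences of 0.46, 0.43 and 0.52 (limma adjusted p = 0.00818, 0.0104 and 0.0111). The second Trex1 probe was not called, with a log2 difference of 0.31 (limma adjusted p = 0.0656). The adaptor gene Myd88, named after its values were seen, was higher by 0.36 (limma adjusted p = 0.0295), and Samhd1, which breaks down deoxynucleotides, was 1.80-fold lower (limma adjusted p = 0.000129).

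Of 63 other interferon-stimulated genes on the array, 37 were detected on no array, among them Ifit1, Mx1, Oas1a, Oas2 and Rtp4. Of the 18 tested, 6 were higher, 3 were lower and 9 were not called, with a median log2 difference of -0.02. Igtp, an immunity-related GTPase, read 6.53, 6.32, 6.64 and 6.23 in Prmt5-depleted arrays, all detected, against 5.11, 4.64, 4.85 and 4.65 in control arrays, none detected, and was at least 2.24-fold higher (limma adjusted p = 3.83e-06). Like Tap1, it passed the detection filter through the Prmt5-depleted arrays alone, which favours a higher level there. The call of Igtp therefore carries no weight in the count. Ifitm2 and Ifitm3, close paralogs whose products block virus entry and whose probes were not checked for shared binding, were 3.34-fold and 2.39-fold higher (limma adjusted p = 1.22e-05 and 0.000364). Trim21, a cytosolic antibody receptor, was 2.14-fold higher at its brightest probe (limma adjusted p = 3.45e-05), while another probe had a log2 difference of -0.30 (adjusted p = 0.238). Ifi30, a lysosomal thiol reductase gene, and Pml, the nuclear body gene, completed the higher genes at log2 differences of 0.59 and 0.43 and were named after their values were seen.

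The 3 lower genes of that list were Tor3a, an ATPase gene, Gbp3, a guanylate-binding protein gene, and Ifit2, the last named after its values were seen. Tor3a was 2.75-fold lower and Gbp3 1.76-fold lower (limma adjusted p = 0.00216 and 0.00116), and Ifit2 had a log2 difference of -0.62 (limma adjusted p = 0.0233). Isg15, a ubiquitin-like protein gene also named afterwards, had a log2 difference of -0.24 ± 0.25 (SE, limma adjusted p = 0.458). Beside Ifi27 and Irf9, which were higher at every detected probe, the list thus had called genes in both directions. In the refits only the list genes picked by the naming rule given below were followed singly, so other called genes may have missed the threshold too. With only control 4 and Prmt5-depleted 1 and 3, which leaves fewer arrays and a lone control, those missing it were Eif2ak2, Trex1, Tbk1, Psmb10, Fcgrt, Jak1 and Ifnar2. Their log2 differences there were 0.55 for Eif2ak2 and 0.50 for Trex1, against 0.52 and 0.46 with all arrays, and 0.33 for Tbk1, 0.24 for Psmb10, 0.55 for Fcgrt, 0.46 for Jak1 and -0.38 for Ifnar2, against 0.43, 0.39, 0.85, 0.85 and -0.70. With the other arrays alone Eif2ak2 also missed it, at a log2 difference of 0.49 (adjusted p = 0.0728).

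**Figure D3:**
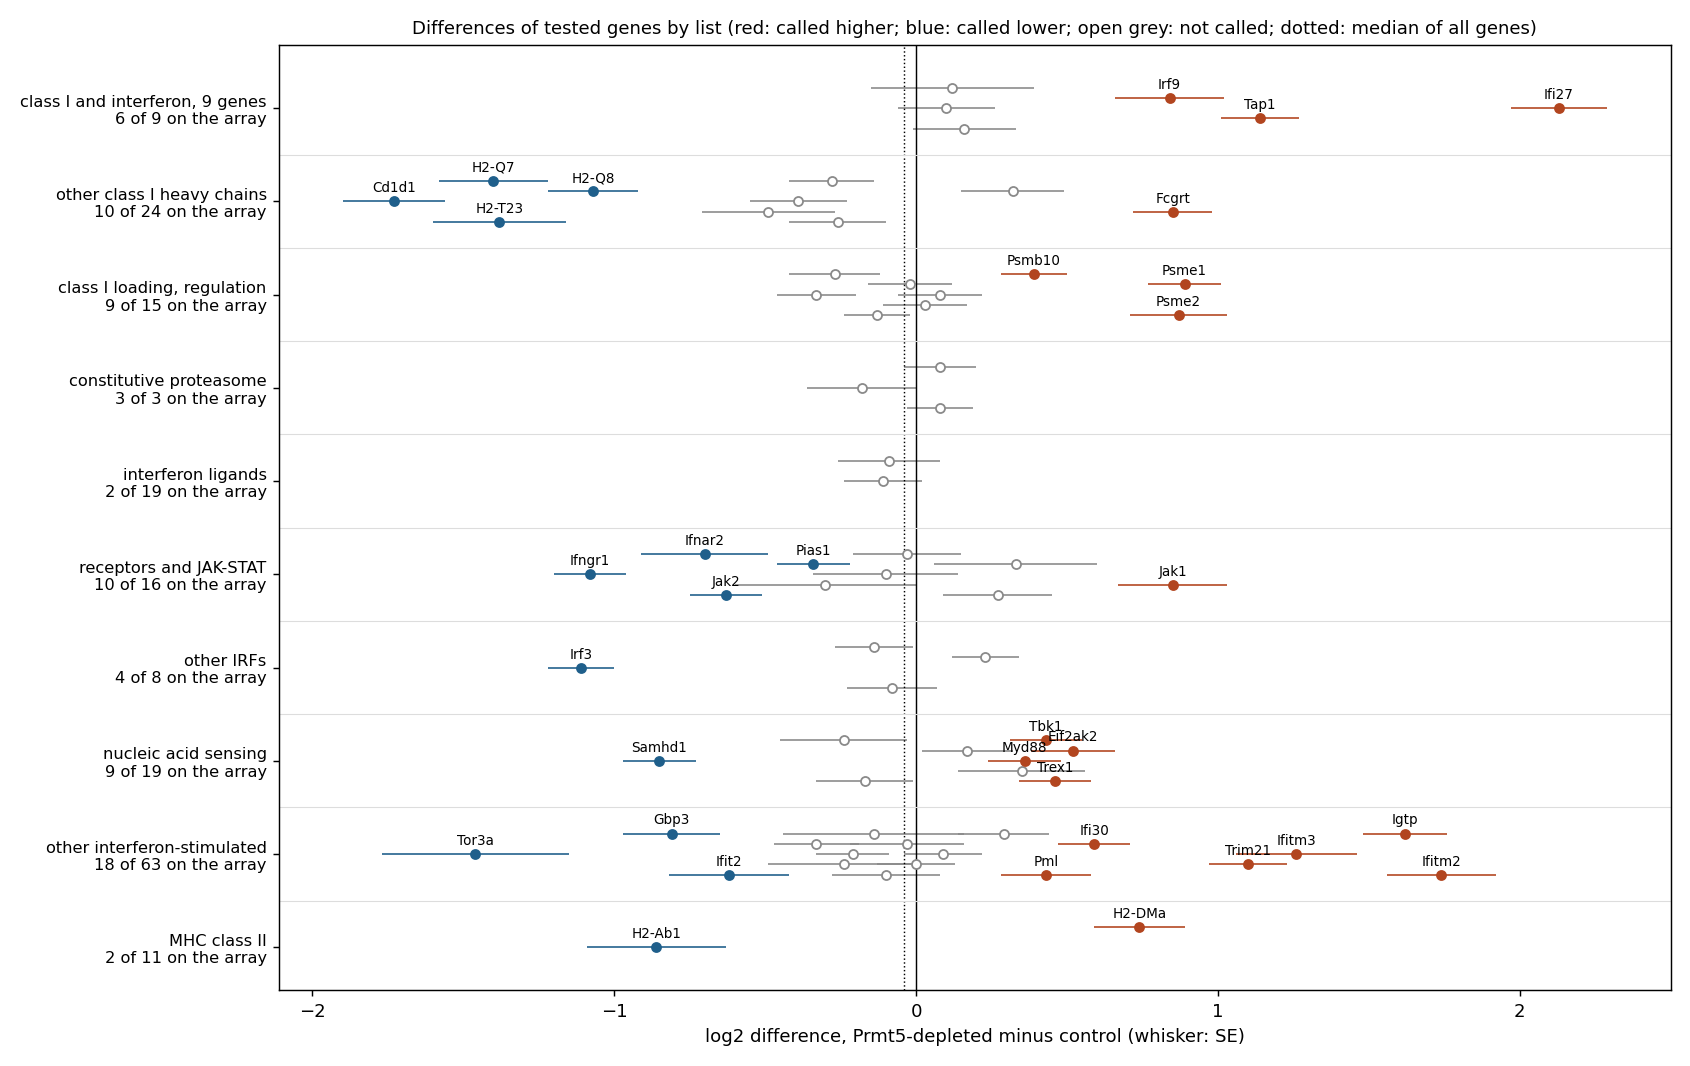
Log2 difference, Prmt5-depleted minus control, with its SE (n = 4 each), for the tested genes of the members and of the antigen presentation and interferon lists, without the cell type markers. Red marks genes called higher, blue genes called lower and open grey genes not called. Ifi27, at 2.13, has the largest difference among the genes plotted, and the lists of other class I heavy chains, receptors and other interferon-stimulated genes hold both red and blue points.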

How the data were processed

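Biotin-labelled cRNA was hybridized to 1-colour Illumina MouseRef-8 V2 bead arrays, 4 per genotype, per the labels' protocols. The authors deposited non-normalized intensity values for 25662 probes and, per the file headers, a detection p-value for each probe and array. Their series matrix gives intensity again: it equals the quantile-normalized first table within 3.64e-12, on a linear scale, without centring or background subtraction, with column medians of 95.7 to 95.8. It served as an alternative. The scanner software and the genome build were not given in the sources used here.

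Signals were background-corrected from the detection p-values, raised by an offset of 16, quantile normalized and log2-transformed with the neqc function (limma 3.58.1 in R 4.3.3, with statmod 1.5.0), which pulls fold changes of dim probes towards 0. Probes with a detection p-value under 0.05 on at least 4 of 8 arrays were kept: 13196, or 51.4%. A gene was read from its brightest kept probe, which gave 9001 genes. Genotypes were compared with lmFit and eBayes in 2-sided tests that had no covariate, and Benjamini-Hochberg adjusted p-values were called under 0.05; member probes carry the probe-level value and list genes the gene-level value. The procedure was tested on simulated data. Where no array of a genotype detected a probe, its level there was raised to that array's lowest level of a detected probe, which makes the fold a lower bound, and no fold is given where the raised level passes that of the other genotype.

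The platform annotation named 23943 probes, of which 23927 matched the RefSeq gene table of GRCm38.p6 by Entrez ID, and 0 symbols changed. The genes named are all member and Prmt5 probes and, per other list, up to 4 called genes with the smallest adjusted p, up to 2 called genes against the more frequent direction, or the 2 with the smallest p where none was called, and the 3 genes most correlated with B2m. The members and lists were chosen with earlier results of these data known. Alternatives were the matrix values, an offset of 50, median scaling, other detection filters, averaged probes, the replicate number as a block, the split on the second principal component and leaving out each array. Precision is limited by the number of arrays. Probe sequences were not analysed here.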

Additional observations from a re-analysis of the deposited data

Results flagged for a closer look

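Among 90 sets of 4 arrays looked at, 7 had 1 array whose gap to the nearest other was past Dixon's critical share of the range of the set; chance gives about 1 in 20 such sets. For the members, control 3 read 5.52 at H2-K1 probe ILMN_2795520, with the other control arrays at 4.91 to 4.95, and it is the array on which that probe was detected. Control 4 read 6.12 at Irf9 probe ILMN_1233461, with the others at 6.75 to 6.86. Control 1 read 5.55 at Irf9 probe ILMN_2636339, with the others at 4.70 to 4.78, so the arrays apart differ between the Irf9 probes. Control 1 read 9.64 and 10.02 at Prmt5 probes ILMN_2722455 and ILMN_2983093, with the others at 10.14 to 10.24 and 10.48 to 10.54. Control 4 read 5.06 at Fcgrt, with the others at 4.70 to 4.71. Control 3 read 7.30 at Gbp3, with the others at 6.82 to 6.90.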

How the results depend on the processing

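Whichever 1 array was left out, 5 member probes and 3 member genes were called higher and 0 lower. Requiring detection on all 8 arrays left 1 member probe and 1 member gene called higher, since Tap1 and Ifi27 then drop out of the test, and 2 called genes among other class I heavy chains. Of all genes, 3799 of 7609 were then called. With no filter on dim probes, 1 member probe and 1 member gene were called lower, H2-D1, which no array detected, and 4404 of 16562 genes were called. With only control 4 and Prmt5-depleted 1 and 3, log2 differences that were not called changed sign for Psmb9 (-0.05), Ifna6 (0.07) and Ifnz (0.07), and 3 receptor and 1 nucleic acid sensing genes were past the threshold, against 5 of each with all arrays; fewer arrays enter that fit. A covariate for the component 2 split gave 5 called genes of class I loading, against 3, while calls over all genes rose to 4883 of 9001, against 4371. Median scaling turned Psmb7 to -0.02. Without 1 array, the log2 difference of B2m ranged from -0.02 (without control 1) to 0.20, that of Bst2 from -0.10 (without Prmt5-depleted 2) to 0.33, and that of Ifnz from -0.20 to 0.02. Called receptor genes ranged from 3 (without Prmt5-depleted 3) to 5, and called heavy chain genes from 5 to 8 (without control 2). Of all 9001 genes, 3961 were called without Prmt5-depleted 3 and 3939 without control 2. The cause of these shifts was not tested. Same-numbered arrays had residual correlations of -0.14, 0.24, -0.16 and -0.37. These values show no pairing by number but cannot exclude it, because the split on the second principal component also enters them. With the replicate number as a block, 5 member probes and 3 member genes were higher and 0 lower, and 3923 of 9001 genes were called, against 4371. Signals near background limit H2-K1, H2-D1, Psmb8, Psmb9 and Tap1.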

Other observations

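The presentation genes of MHC class II, which carry peptides from outside the cell, were also read. Of 11 on the array, 8 were detected on none, among them Cd74, the invariant chain, and Ciita, the class II transactivator, and 2 were tested. H2-DMa, a subunit of the peptide exchange factor, averaged 7.85 ± 0.18 in Prmt5-depleted and 7.11 ± 0.26 in control arrays (SD, n = 4 each) and was 1.67-fold higher (limma adjusted p = 0.00168). H2-Ab1, a class II beta chain, averaged 5.61 ± 0.26 in Prmt5-depleted and 6.47 ± 0.52 in control arrays (SD, n = 4 each) and was 1.81-fold lower (limma adjusted p = 0.01). The other 3 H2-Ab1 probes had log2 differences of -0.99, -0.70 and -0.48, and the last was not called (limma adjusted p = 0.163).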
